A study of Mus musculus with 2 samples.

Results

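Among single cells of the mouse maxillary periodontium, 54 cells were selected by transcripts of Dok6, Plppr1 and Kcnip4, genes best known from neurons. Of these cells, 51 had a UMI of Dok6, 53 of Plppr1 and 27 of Kcnip4. A barcode was counted if it had at least 2 UMIs of at least 2 of these 3 genes, no UMI of Ptprc or Pecam1 (markers of leukocytes and endothelium), a minimum of 200 genes and no more than 20% mitochondrial UMIs. A UMI, or unique molecular identifier, marks 1 captured mRNA molecule. The rule found 54 of 32641 kept barcodes, all in the library titled RP, where they were 0.312% of 17290 (exact 95% binomial interval 0.235 to 0.407%). None was found among the 15351 kept barcodes of the library titled 377P (exact 95% binomial interval 0 to 0.0240%). The counts of the 3 genes chose the cells, so their levels describe the choice and support nothing further. The fixed marker lists did not name the cells, and they are called the selected cells here.

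The series comprises 2 droplet libraries made from dissociated upper-jaw periodontium, the tissue that holds the teeth. Its title refers to diabetic periodontitis and its resolution. The treatment, genotype, strain, age and number of animals behind 377P and RP are not known from the labels. Each title has 1 library, so no value has a replicate check, no p-value is given, and all intervals cover counting error only.

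Several gene families named below have known roles in tooth and jaw development. Msx and Dlx homeobox proteins are transcription factors that pattern the facial mesenchyme and act in tooth germs. Hedgehog signalling starts when a secreted ligand binds the receptor Ptch1, which frees Smo to activate the Gli transcription factors, and Ptch1, Gli1 and Hhip are themselves targets of the pathway. In the continuously growing mouse incisor, dental mesenchyme lies next to enamel-forming epithelium, and odontoblasts and ameloblasts lay down dentine and enamel between them.

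The kept barcodes had medians of 5352 UMIs in 377P and 4398 in RP. RP held much free RNA of gland genes: B or plasma cells of RP, which should lack such transcripts, carried 36529 counts per 1000000 UMIs (CPM) of the gland marker list, T or NK cells 12955, and the selected cells 8641. For that reason the pooled level in these lymphocytes is given below where a gene could come from free RNA. It is a rough guide and not a measure of free RNA in the selected cells. The gland level differed between the lymphocyte classes, and their median depth was lower, at 4399.5 UMIs (B or plasma) and 4500 (T or NK) against 9338.5 in the selected cells. The libraries shared 82 barcode sequences, and 1 selected cell had a barcode that also occurred in 377P.

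The selected cells had a median of 9338.5 UMIs (2465 to 26169), 3578.5 genes and 2.14% mitochondrial UMIs. Scrublet, which scores barcodes against simulated pairs of cells, called 569 doublets in RP. That is 3.29% of its kept barcodes, against an expected 12%. None of them was a selected cell, which at so low a share says little about doublets among 54 cells. Of the 54 cells, 32 met the rule through Dok6 and Plppr1 alone, 5 through Dok6 and Kcnip4, 4 through Plppr1 and Kcnip4, and 13 through all 3. Their summed 538612 UMIs are the depth behind each level below.

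Dok6 encodes a docking protein of the Ret receptor tyrosine kinase and lies on the minus strand of chromosome 18 (mm10, 89292424 to 89769528). Its lowest, median and highest counts were 0, 6 and 24 UMIs per cell, and its summed level was 655 CPM (589 to 727) against 3.98 in all other kept cells of RP. Plppr1, on the plus strand of chromosome 4 (49059273 to 49340259), encodes a membrane protein related to the phospholipid phosphatases. It had 0, 3.5 and 23 UMIs per cell and 561 CPM (499 to 628) against 1.81. Kcnip4, on the minus strand of chromosome 5 (48389502 to 49524907), encodes a calcium-binding subunit of A-type potassium channels. It had 0, 0.5 and 26 UMIs per cell, so that 50% of the cells had none, and 301 CPM (256 to 351) against 2.98. These 54 cells held 42.6% of all Dok6 UMIs, 58.3% of Plppr1 and 31.3% of Kcnip4 in the kept cells of RP.

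Ptn, on the minus strand of chromosome 6 (36714929 to 36810220), was no part of the rule. It encodes pleiotrophin, a heparin-binding growth factor. The counts were 0, 14 and 64 UMIs per cell, and 98.1% of the cells had at least 1. Its level of 1801 CPM was 13.7 times that of the other kept cells (12.8 to 14.6). Ptn was also well expressed elsewhere: the selected cells held only 5.83% of its UMIs in RP, and the highest other class, lymphatic endothelial cells, reached 432 CPM. The plot of UMIs per cell shows a Ptn count above 0 in 53 cells and the uneven spread of Kcnip4.

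**Figure D1:**
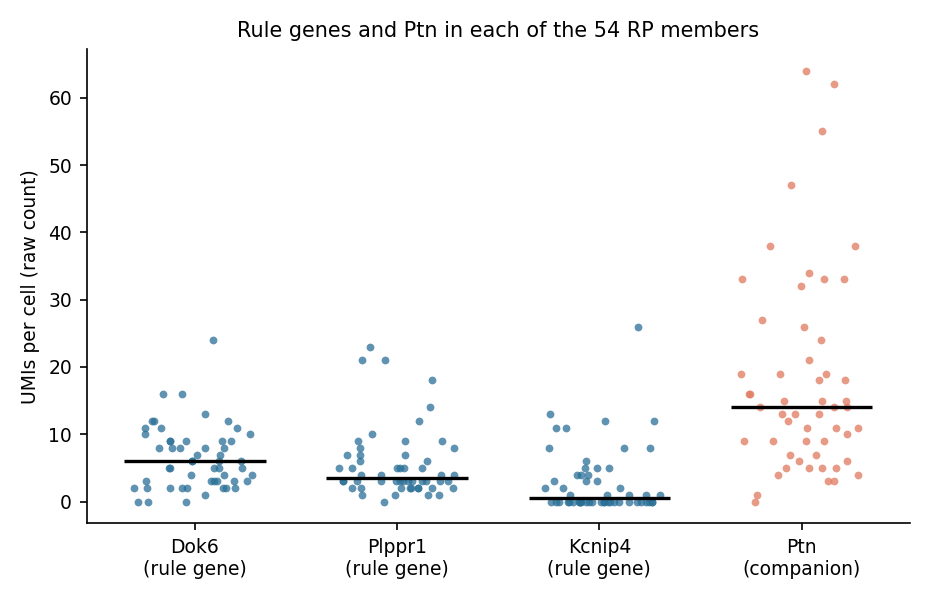
Raw UMIs (vertical axis) of Dok6, Plppr1, Kcnip4 and Ptn in each of the 54 selected cells of RP (points, spread sideways for legibility), with the median as a black line. The medians are 6, 3.5, 0.5 and 14 UMIs, and 27 cells have no Kcnip4 UMI.

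The border of the rule was not sharp in other genes. In the 12 selected cells whose second rule gene had exactly 2 UMIs, the levels were 1455 CPM for Ptn, 703 for midkine (Mdk), 455 for Unc5c and 218 for Msx2. In 16 barcodes left out because the second gene had 1 UMI, they were 1484, 568, 280 and 81.2 CPM. In 44 barcodes with 2 or more UMIs of 1 rule gene and none of the others, they were 392, 148, 85.3 and 10.0. The rule therefore left out barcodes with a like pattern of these genes, and the count of 54 is a count under the rule.

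Against all other kept cells of RP, 9669 genes had a mean of the 2 CPM values of at least 10 and were counted as measured. Of these, 2028 (21%) were at least 2-fold higher in the selected cells and 1450 (15%) at least 2-fold lower, with a median log2 ratio of 0.28. These shares are the background for every list below. A gene at or past 2-fold is called higher or lower, which is a rule of size and not a test. The members of each list and the fold are a description, since the cells were chosen on transcripts of the same cells.

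The 30 genes leading by the lower bound of their fold were compared with the 11 gated RP classes of at least 50 cells. Each was highest in the selected cells, which is a description of genes picked for being high. Chondrocytes (41 cells), mast cells or basophils (36), neurons (16) and 19 barcodes with enamel epithelium markers were not ranked. The rule genes are 3 of the 30. Adamts19, a secreted metalloprotease, was at 299 CPM (255 to 349) against 1.37, a fold of 219 (175 to 274), with 79.6% of the cells carrying a UMI. Vwde had 92.8 CPM against 0.394, Nell1, a secreted protein that acts in bone formation, 106 against 0.771, and Scube1 156 against 2.09. With the 13 cells that met the rule through all 3 genes alone, the log2 fold of Nell1 fell from 7.10 to 5.03. Frem1, a matrix protein of embryonic basement membranes, had 238 CPM against 4.72 and was seen in 85.2% of the cells. Sox11, a transcription factor of progenitor cells, had 158 CPM against 2.47. In pooled B, plasma, T and NK cells, Adamts19, Vwde, Nell1 and Sox11 had no UMI.

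The next counts describe genes picked for being high and detected in these same cells, and they are no sign that the genes go together. Taking the 10 leaders other than the rule genes (Adamts19, Vwde, Rspo4, Nell1, Scube1, Dlx6os1, Msx2, Sox11, Frmd5 and Frem1), the selected cells had UMIs of a median of 7 and at least 2, and the most in any barcode of RP was 9. In RP, 66 barcodes had at least 5 of the 10, and 45 of them were selected cells. In 377P no barcode had 5, and the most in any barcode was 4. The heat map of levels by class shows the contrast with the other cells of RP.

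**Figure D2:**
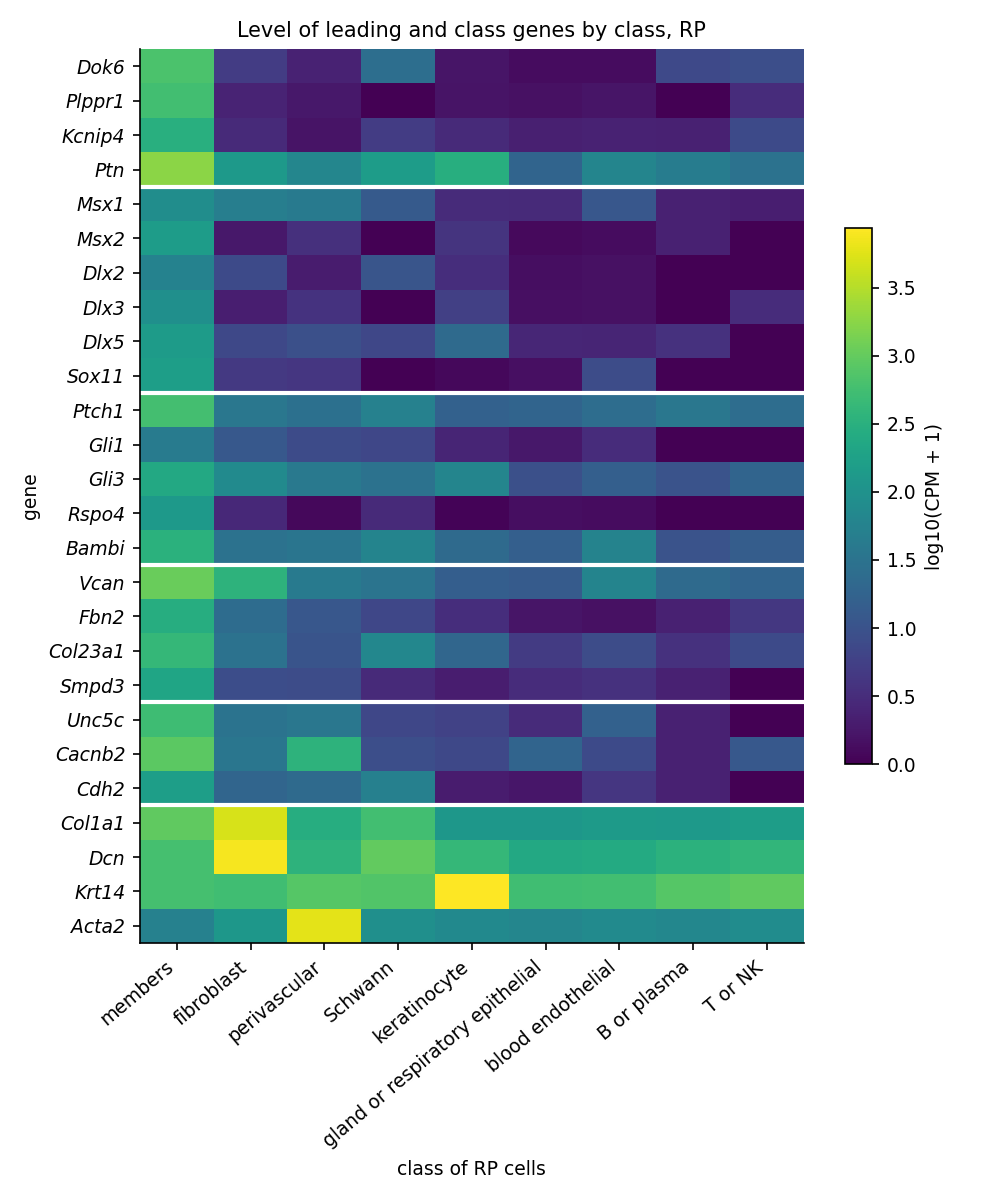
Level of 26 genes (rows, white lines separate rule genes and Ptn, transcription factors, signalling genes, matrix genes, surface and channel genes, and genes of other classes) in the selected cells ("members") and 8 gated classes of RP (columns), as log10(CPM + 1). Msx2, Dlx3, Rspo4 and Smpd3 are bright only in the first column, while Col1a1 and Dcn peak in fibroblasts, Krt14 in keratinocytes and Acta2 in perivascular cells.

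Transcription factors of the face and teeth were often high. Of 36 measured genes of this list, 19 were higher and 10 lower, with a median log2 ratio of 1.20 against 0.28 over all genes. Msx2 (minus strand of chromosome 13, 53466884 to 53473074) had 0, 1 and 8 UMIs per cell as lowest, median and highest, and 149 CPM (118 to 185) against 2.26, a fold of 65.9 (50.7 to 84.8). Msx1 reached 85.4 CPM against 13.5, and fibroblasts, its next highest class, had 46.8. Dlx genes stand in pairs on the chromosomes, and both members of 2 pairs were higher: Dlx1 and Dlx2 on chromosome 2 were 17.9 and 20.6 times the level of other cells, and Dlx3 and Dlx4 on chromosome 11 were 39.8 and 52.2 times. Dlx5 on chromosome 6 had 0, 1 and 9 UMIs per cell and 143 CPM against 10.3. The noncoding RNA Dlx6os1 was at 136 CPM against 1.87. It overlaps Dlx6 on the opposite strand, and whether the counting used strand is not given in the sources used here, so reads of the pair may not be told apart.

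Further members of that list were widely detected. Twist2, an inhibitor of osteoblast maturation, was 13.9 times higher (11.0 to 17.3), and Alx1, a regulator of the frontonasal skeleton, 9.62 times (6.65 to 13.5). Sox5, a partner of Sox9 in cartilage, had 444 CPM against 52.0 but was as high in perivascular cells (445). Runx2, needed for osteoblasts and tooth development, was 2.47 times higher at 162 CPM. T or NK cells, its highest class, had 210 CPM, and the lowest class had 12.6. The pooled lymphocyte level of 126 CPM therefore cannot be read as free RNA for this gene. On the lower side stood Barx1 (5.57 CPM against 36.5), a factor of molar mesenchyme, Pitx1 (11.1 against 86.7), Meis2 (13.0 against 155) and Nfib (72.4 against 322). Six2, Tbx18, Foxc2 and Hand2 had no UMI, which allows up to 5.57 CPM each. The list thus held genes of both directions.

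Several Hedgehog target genes and transducers were high. Of 8 measured pathway genes, 6 were higher and 2 lower, with a median log2 ratio of 2.12. Ptch1 had 0, 5 and 23 UMIs per cell, and 585 CPM (522 to 653) against 23.7, a fold of 24.7 (21.9 to 27.8). Its level in lymphocytes was 29.3 CPM, and no other class passed 53.4. Gli1 had 42.7 CPM against 3.66, Hhip, a decoy receptor for the ligands, 48.3 against 5.06, Gli3 234 against 40.9, Gli2 31.6 against 9.54, and Smo 72.4 against 25.0. The co-receptors Gas1 (35.3 against 95.4) and Boc (14.9 against 34.5) were lower. Cdon, a co-receptor too low to count as measured, had 1 UMI (1.86 CPM against 15.1). The ligands Shh, Ihh and Dhh had no UMI in the 54 cells. In the other kept cells they had only 0.117, 0.0671 and 1.80 CPM. A count of 0 allows up to 5.57 CPM, so this does not set the selected cells apart. Gli1 was seen in 31.5% of them and Ptch1 in 83.3%.

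Among Wnt pathway genes, 9 of 21 measured were higher and 5 lower, with a median of 0.29, close to that of all genes. Rspo4, a secreted amplifier of Wnt signalling, had 0, 1 and 6 UMIs per cell and 130 CPM against 0.889, a fold of 146 (107 to 200). Its log2 fold was 7.19 over the 54 cells and 3.82 over the 13 cells that met the rule through all 3 genes. Its relative Rspo2 had 35.3 CPM against 0.537. The Wnt-binding inhibitor Frzb had 55.7 CPM against 1.99, and Sostdc1, an inhibitor of Wnt and BMP signalling in teeth, 110 against 14.3. Schwann cells had more Sostdc1 (125 CPM). Lgr6, an R-spondin receptor, was 9.95 times higher, and Wnt5a 5.75 times. Axin2, a common target of the pathway, was 3.36 times higher but rested on 12 UMIs. Wnt4, Sfrp2 and Sfrp4 were lower, at 13.0, 18.6 and 3.71 CPM against 68.9, 125 and 22.1.

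BMP and TGF-beta genes showed the same mixture, with 11 of 25 higher, 6 lower and a median of 0.76. Bambi, a pseudoreceptor that damps BMP and TGF-beta signals, had 0, 2 and 22 UMIs per cell and 323 CPM against 24.4. Smad6, an intracellular BMP inhibitor, was 11.4 times higher (8.94 to 14.2). Ligands on the higher side were Bmp5, Bmp7, Bmp2, Bmp4 and Tgfb2, at 39.0, 46.4, 221, 50.1 and 201 CPM. Their next highest classes had 26.9, 23.7, 185, 45.8 and 198 CPM. Fibroblasts were that class for Bmp2, Bmp4 and Tgfb2, so these ligands were not particular to the selected cells. The BMP target Id3 reached 932 CPM against 378, but perivascular cells had 1199. The secreted antagonists Fst and Chrdl1 and the activin subunit Inhba were lower, at 14.9, 3.71 and 1.86 CPM. Ligands and intracellular inhibitors of BMP signalling were therefore both among the higher genes.

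**Figure D3:**
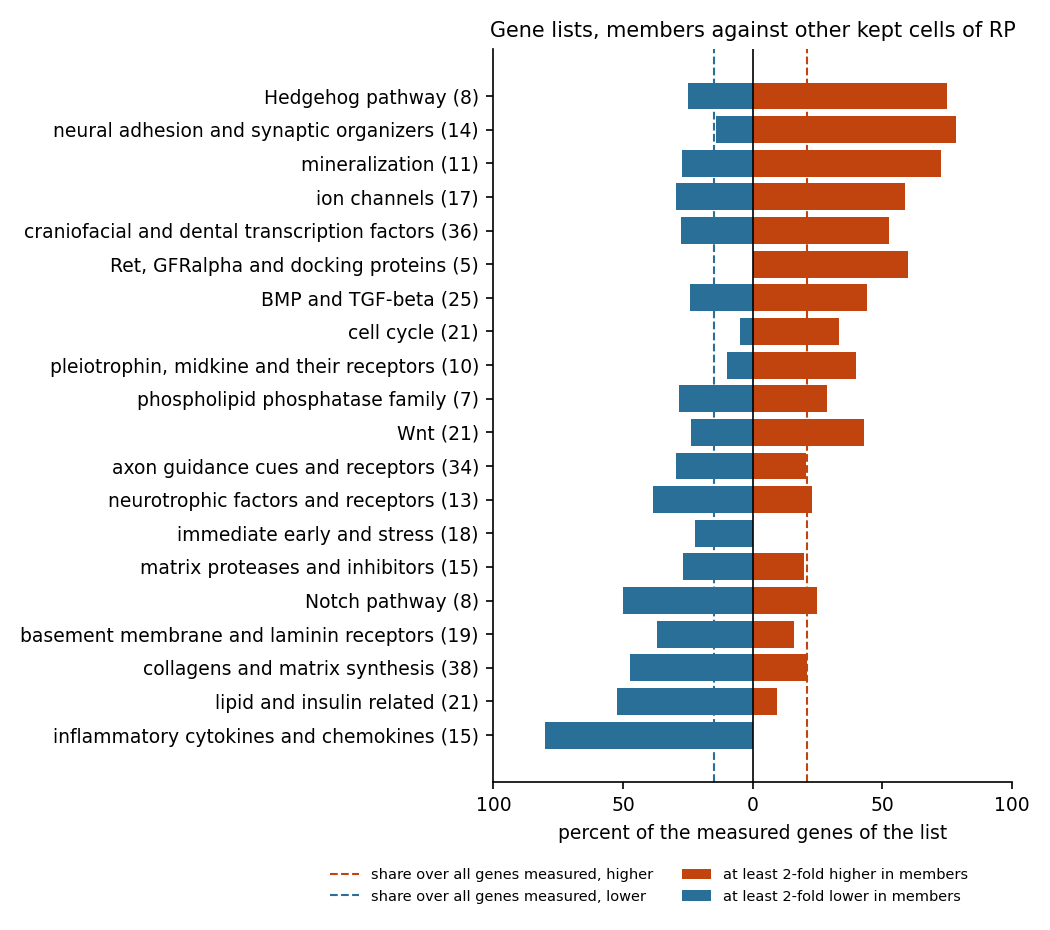
Percent of the measured genes of each list (number in brackets) at least 2-fold higher (right, orange) or lower (left, blue) in the selected cells than in all other kept cells of RP, ordered by the median log2 ratio. The dashed lines mark the shares over all measured genes, 21% and 15%, and 6 of 8 Hedgehog genes against 0 of 15 cytokine genes lie on the higher side.

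Relatives and partners of the rule genes were mixed. Of 5 measured genes of the list of Ret, its co-receptors, ligands and docking proteins, 3 were higher and none lower, with a median log2 ratio of 1.11. Ret, the receptor that Dok6 docks to, had no UMI, while its co-receptors Gfra2 and Gfra1 had 98.4 and 46.4 CPM, 11.2 and 4.49 times the other cells. Schwann cells had more Gfra1 (534 CPM). Of the phospholipid phosphatase family, 2 of 7 measured genes were higher and 2 lower, with a median log2 ratio of 0.51, which was -0.81 over the 13 cells with all 3 rule genes. Plppr3 was 15.7 times higher on 11 UMIs, and Plppr4 and Plppr5 had none. Of the A-type potassium channel genes only Kcnab1 was measured (14.9 CPM against 34.1), and the other KChIP genes Kcnip1 and Kcnip3 and the channel Kcnd3 had no UMI.

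For pleiotrophin and midkine, the 2 members of 1 growth factor family, 4 of 10 measured genes of the list of ligands and receptors were higher and 1 lower. Midkine had 0, 5 and 29 UMIs per cell and 670 CPM against 31.5, a fold of 21.2 (19.0 to 23.7), with no other class above 124. Among receptors, syndecan 3 (Sdc3) was 7.38 times and Ptprs 2.12 times higher. Ptprz1, a receptor phosphatase bound by pleiotrophin, had 42.7 CPM against 26.0, and syndecan 4 had 574 against 594. The ligands thus stood farther above other cells than most of their receptors did.

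Many neural adhesion genes were higher than in other cells of RP, while most general neuronal genes had few or no UMIs. In the list of neural adhesion and synaptic organizer genes, 11 of 14 measured were higher and 2 lower, with a median of 1.83. N-cadherin (Cdh2) had 160 CPM against 7.57, the netrin-G ligand Lrrc4c 117 against 3.66, Tenm4 405 against 54.2 and Cdh11, a mesenchymal cadherin, 317 against 58.4. Cdh11 was also high in fibroblasts, at 260 CPM. Cdh2, Lrrc4c, Tenm4 and Cdh11 were each highest in the selected cells. Fibroblasts had more Negr1 (264 CPM against 134 in the selected cells), Lsamp (186 against 92.8) and Nlgn1 (53.1 against 46.4). Schwann cells had more Tenm3 (542 against 225), and neutrophils more Ncam1 (106 against 91.0). A further 10 genes of the list, among them Nrxn3, Cntn1 and Cntnap2, had no UMI. Snap25, Syt1, Elavl4, Rbfox3, Nefl and Nefm, which mark neurons, had none either. The other kept cells had at most 2.88 CPM (Syt1) of these neuron genes, less than the 5.57 CPM that a count of 0 allows. Of the neuron list only Gap43 was measured, at 18.6 CPM against 6.18. Tubb3, Elavl3 and Gng8 stood at 2.41, 2.25 and 2.71 times other cells, on 7, 4 and 3 UMIs. Stmn2 had 1 UMI.

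Ion channel genes were led by calcium channel subunits. Of 17 measured, 10 were higher and 5 lower, with a median of 1.46. Cacnb2, an accessory subunit of voltage-gated calcium channels, had 0, 9 and 26 UMIs per cell and 889 CPM (811 to 973) against 35.8, with a UMI in 98.1% of the cells. Perivascular cells had 353 CPM of it and lymphocytes 6.58. Cacna2d3 had 303 CPM against 16.3, and the pore-forming Cacna1c 499 against 83.9. Perivascular cells had 440 CPM of Cacna1c, and fibroblasts, the next class for Cacna2d3, had 59.9 of that gene. Piezo2, a mechanically gated channel, had 423 against 22.3, with lymphatic endothelial cells at 325. The glutamate receptor subunit Gria3 was 19.6 times higher.

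Of 34 measured axon guidance genes, 7 were higher and 10 lower, with a median of 0.21, so the list as a whole did not stand above all genes. The netrin receptor Unc5c was an exception among its members, with 0, 3 and 19 UMIs per cell and 514 CPM (455 to 579) against 13.8. Its relative Unc5d had 85.4 against 1.95, and the Slit receptor Robo1 449 against 60.2. Sema3c (18.6 against 105) and Slit2 (37.1 against 107) were lower. Among 13 neurotrophic genes, 3 were higher and 5 lower. Erbb4, a neuregulin receptor, was 81.6 times higher at 65.0 CPM in 27.8% of the cells, whereas Nrg1 and Fgf7 were lower, Fgf7 with no UMI.

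Matrix genes divided by type. Of 38 measured collagen and matrix genes, 8 were higher and 18 lower, with a median log2 ratio of -0.99. Versican (Vcan), a large proteoglycan of loose embryonic matrix, had 0, 8.5 and 70 UMIs per cell and 1086 CPM against 88.8, a fold of 12.2 (11.2 to 13.3), with fibroblasts next at 347. Fibrillin 2 (Fbn2), of developing microfibrils, had 284 CPM against 7.08, and the transmembrane collagens Col23a1 and Col25a1 423 against 17.0 and 264 against 11.3. Hapln1, which links hyaluronan to versican and aggrecan, had 126 CPM against 3.24. Col1a1 was present in nearly every cell, at 932 CPM against 966. The main fibroblast products were lower: Col3a1 at 371 CPM against 1216 in other cells, Dcn at 603 against 1644, and Postn at 59.4 against 277. Postn stood only slightly above its lymphocyte level of 42.5.

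Basement membrane genes went lower more often than higher (7 against 3 of 19), and Lama1, a laminin chain of embryonic basement membranes, was the farthest above, at 59.4 CPM against 1.27. Of 15 measured matrix protease and inhibitor genes, 3 were higher and 4 lower, with Adam12 at 184 CPM against 15.8 and Adam23 at 167 against 3.86. Mineralization genes were 8 higher and 3 lower of 11, with a median of 1.52. Dlx5 and Runx2, both among the 8, also belong to the transcription factor list. Sp7, a transcription factor needed for osteoblasts, had 0, 0 and 3 UMIs per cell, 20 in all, and 37.1 CPM against 0.662. Smpd3, a sphingomyelinase that acts in mineralization, had 202 CPM against 4.32 and was outside that list. Of products of mature bone and dentine, Dmp1, Ibsp, Mepe, Bglap2 and Phospho1 had no UMI. The other kept cells had only 2.66, 5.88, 0, 2.11 and 0.0587 CPM of them. A count of 0 allows about as much (5.57 CPM), so these zeros do not set the selected cells apart. Alpl, at 24.1 CPM against 8.88, came from 9.26% of the cells.

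Among enamel genes, the selected cells carried ameloblastin (Ambn) with little amelogenin (Amelx). Ambn (chromosome 5, 88455991 to 88468531) had 0, 1 and 9 UMIs per cell, a UMI in 61.1% of the cells and 175 CPM against 8.63. Amelx (chromosome X, 169176114 to 169187200) had 12 UMIs in all, or 22.3 CPM, below the 31.7 of lymphocytes. The part of free RNA in these levels was not tested. The selected cells had 7.83 Ambn UMIs per Amelx UMI (4.28 to 15.7). In 19 barcodes with several enamel epithelium markers, a class gated after the Ambn level had been seen, the ratio was 0.0472 (0.0438 to 0.0508), and in fibroblasts and keratinocytes it was 0.0850 and 0.0798. The monocyte or macrophage class, at 0.112, had 592 CPM of Amelx with a UMI in 15.3% of its cells. Sp6, a transcription factor of tooth epithelium, had 91.0 CPM against 4.59 and was seen in 55.6% of the selected cells, while Enam, Odam, Amtn and Klk4 had no UMI.

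**Figure D4:**
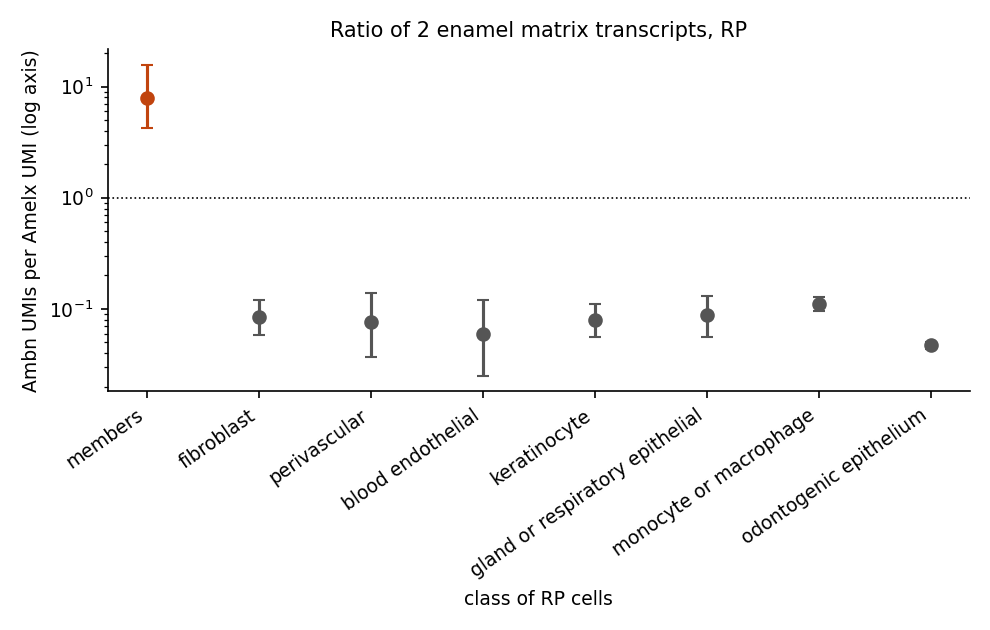
Ambn UMIs per Amelx UMI (log axis) in the selected cells ("members") and in the classes of RP with at least 8 Ambn UMIs. Bars are exact 95% intervals of the ratio of 2 counts. The selected cells stand at 7.83, and the other classes lie between 0.0472 and 0.112.

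Inflammatory genes were low against the pool of all other kept cells. None of 15 measured cytokine and chemokine genes was higher and 12 were lower, with a median of -2.15. The 4 with the highest level in the selected cells were Cxcl2 (321 CPM against 655), Cxcl1 (204 against 532), Cxcl10 (150 against 182) and Ccl2 (92.8 against 554). In lymphocytes these 4 genes stood at 177, 126, 116 and 78.3 CPM, and the part of free RNA was not tested. Counted from the highest, the selected cells ranked 5, 9, 8 and 10 of 12 groups for them. The pool includes classes with very high levels, such as neutrophils with 9598 CPM of Cxcl2. Lipid and insulin genes were 2 higher and 11 lower of 21. Irs1, the insulin receptor substrate, was 15.5 times higher (12.3 to 19.3), and Igfbp5, Igfbp3 and Igfbp2 had 63.1, 18.6 and 35.3 CPM against 467, 142 and 276. Of 18 immediate early and stress genes, none was higher and 4 were lower. Of 8 Notch genes, 2 were higher and 4 lower, with Hes1 at 234 CPM against 114.

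No marker list of a cell type was high throughout in these cells, and several had some higher members. Of 9 fibroblast markers, 2 were higher (Lum at 672 CPM against 306 and Pdgfra at 92.8 against 43.0) and 5 lower. Of the dental pulp or papilla list, 6 were measured, with Mest (113 against 7.80) and Shisa2 (44.6 against 3.66) higher and Barx1, Sfrp2, Dkk3 and Smoc2 lower. Odontoblast markers gave Sp7 and Nes as higher, but Dmp1, Ibsp and Mmp20 were at 0. Too low to count as measured were Dkk1 (7 UMIs, 13.0 CPM against 0.193), Dspp (1 UMI) and Phex (2 UMIs, 3.71 CPM against 12.1). Of 5 measured periodontal ligament markers, Mkx (4.92 times), Fmod (3.43) and Col12a1 (3.30) were higher, and Postn and Aspn lower. Osteoblast lineage markers gave Sp7, Alpl (2.72 times) and Runx2 (2.47) as higher and Spp1 as lower, with Bglap2, Ibsp, Dmp1 and Mepe at 0. Of 7 measured endoneurial fibroblast markers, Col9a2 (29.6 times), Osr2 (3.05) and Sox9 (2.14) were higher and 3 lower, and 55.6% of the cells had a UMI of at least 2 of its first 4 markers, against 21.4% of fibroblasts and 73.2% of gland or respiratory epithelial cells. Of the chondrocyte list, Hapln1 and Sox9 were higher, and Col2a1, Matn1, Cnmd and Comp had no UMI. Sox10 and Foxd3, which define Schwann cells, were at 0, and the Schwann list gave 0 higher and 3 lower of 4. Endothelial, gland and keratinocyte lists gave 0 higher genes. Krt14 had 590 CPM against 885 in lymphocytes. The genes named here at 0 had from 0 (Mepe) to 9.10 CPM (Comp) in the other kept cells. A count of 0 allows up to 5.57 CPM, so most of these zeros do not set the selected cells apart from the others. The Msx and Dlx genes, Sp7 and Vcan that stood high are known from dental and facial mesenchyme, but each of these lists had members that were lower or at 0, and the cells were given no name.

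Over genes with at least 10 CPM in either group, the levels of the selected cells ranked most like those of gated fibroblasts (Spearman rho 0.71 over 10353 genes, 2957 cells), then keratinocytes (0.67) and perivascular cells (0.66). These correlations are across genes of 1 library that share its free RNA. Schwann cells followed at 0.65, and the lowest was the neutrophil class at 0.52. The first 3 classes served for comparison.

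Against fibroblasts, 1926 of 9441 measured genes (20.4%) were higher in the selected cells and 1201 (12.7%) lower, with a median log2 ratio of 0.31. Collagen and matrix genes were 4 higher and 30 lower of 38, with a median of -3.03. Proteases and inhibitors were 2 higher and 13 lower of 19. Among the 8 genes farthest below fibroblasts were Itgbl1 (1.86 CPM against 245), gelsolin (Gsn, 483 against 11288), Pi16 (18.6 against 696), a marker of adventitial fibroblasts, Inmt (5.57 against 307), Igfbp5 (63.1 against 1658) and Has1 (20.4 against 670). Gsn, Pi16, Inmt, Igfbp5 and Has1 were below their lymphocyte levels too. On the higher side, leaders outside the rule were Msx2 (149 against 0.775 in fibroblasts), Vwde, Nell1, Adamts19 and Dlx6os1. Transcription factors of the face and teeth were 14 higher and 13 lower of 40, a median of 0.09 against 0.31 over all genes.

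Against keratinocytes, 2285 of 9291 genes (24.6%) were higher and 1015 (10.9%) lower. Krt14 (590 CPM against 8659), Krt15, Krt6a, Igfbp2, Nrg1 and Fst were among the 8 farthest below. Against perivascular cells, 2269 of 9497 (23.9%) were higher and 1392 (14.7%) lower. Contractile genes led the lower side, with Acta2 at 52.0 CPM against 6059, Myh11 at 20.4 against 2769 and Tagln at 70.6 against 6094. The selected cells had a median depth of 9338.5 UMIs, against 4955 in fibroblasts, 10054 in keratinocytes and 3657.5 in perivascular cells.

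Some of the selected cells carried many cell cycle genes. Of 22 listed genes, the cells had UMIs of 0 to 21, with a median of 3, and 14 cells (25.9%) had at least 5. These 14 had a median of 13130.5 UMIs and the other 40 a median of 8009.5. With each cell thinned to 2000 UMIs, at least 2 of the genes were found in 17 of 54 cells (31.5%, exact interval 19.5 to 45.6), in 9.38% of fibroblasts, 9.55% of perivascular cells and 43.5% of keratinocytes, with 207, 138 and 127 cells too shallow to thin. Lymphocytes gave 26.9% (B or plasma) and 25.0% (T or NK). In summed levels, 18 of 21 measured cycle genes were higher than in fibroblasts and 0 lower. Against all other cells of RP, 7 were higher and 1 lower, led by Aurka at 37.1 CPM against 7.28. Cycling was not read from these counts alone.

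Kcnip4 is a rule gene, so a split by it draws on values that chose the cells, and the ratios below are a description. It was present in 27 cells (median 10184 UMIs) and absent in 27 (median 8587), and 9 of the 14 cells with many cell cycle genes were among the former. The genes named next, and those in the plot of ratios, were chosen after their values had been seen. Frmd5 had 481 CPM with Kcnip4 and 121 without, a ratio of 3.96 (2.64 to 6.13), and was seen in 88.9% and 51.9% of the cells. Smpd3 had 274 and 113 CPM, Cdh2 214 and 92.0, Piezo2 527 and 293, and Ptn 2220 and 1276. Rbfox1, at a ratio of 2.62, came from fewer cells, 55.6% and 37.0%.

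Other genes were lower in the cells with Kcnip4. Col9a2 had 23.4 CPM with it and 243 without (ratio 0.0963, 0.0371 to 0.211), with a UMI in 22.2% and 59.3% of cells. Rspo4 had 46.7 and 234 CPM, in 40.7% and 77.8% of cells. Timp3, a metalloprotease inhibitor, had 120 and 561, Col12a1 103 and 339, Nell1 36.7 and 192, and Bmp2 137 and 326. Twist2, Mest, Irs1 and Kif26b were lower as well, at ratios of 0.365 to 0.419. Dok6 had 514 and 833 CPM, but cells without Kcnip4 entered the rule only through Dok6 and Plppr1, so that difference is partly fixed by the choice. The intervals of Msx2 (ratio 0.98), Dlx3, Ambn, Ptch1, Cacnb2 and Vcan all held 1, and this does not show that the levels were alike.

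**Figure D5:**
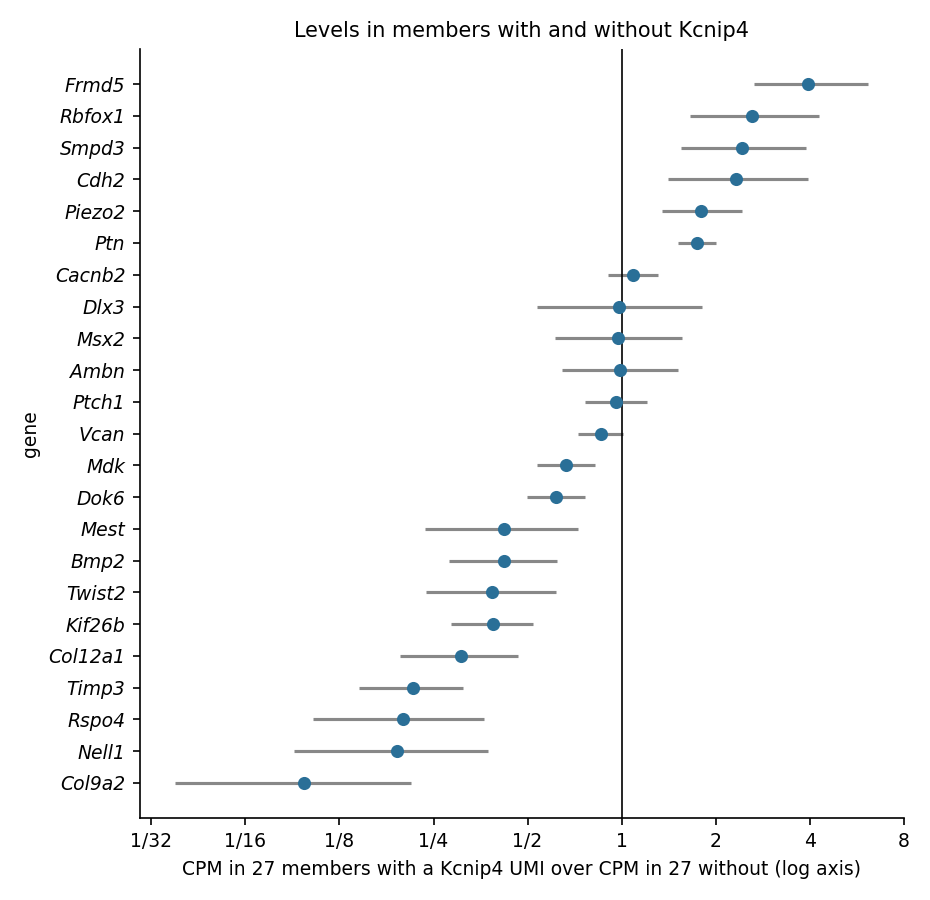
Ratio of CPM between the 27 selected cells with a Kcnip4 UMI and the 27 without (log axis) for 23 genes, with exact 95% intervals that cover counting error only. Frmd5 lies at 3.96 and Col9a2 at 0.0963, and the intervals of Msx2, Dlx3, Ambn and Ptch1 hold 1.

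A few genes came from a small share of the cells. Gpc5, a glypican, had 201 CPM against 6.31 but a UMI in 24.1% of the cells, and the glutamate receptor subunit Grik1 100.3 CPM in 22.2%. Both were nearly confined to cells with under 5 cell cycle genes: Gpc5 had 320 CPM there and 4.89 in the other 14 cells, and Grik1 had 159 and 4.89. By contrast, Vcan, Cacnb2 and Ptn were each found in 98.1% of the 54 cells. Plppr1 was too, but it is a rule gene, so its share is largely set by the choice of cells.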

How the data were processed

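The deposited matrices hold raw UMI counts per gene and barcode, to which no normalisation had been applied. They were written by Cell Ranger 7.0.1 per the file headers, and the submitters' processing notes name Cell Ranger, STAR and the mm10 genome. The libraries were made with a Chromium 3' v3 kit, per the labels' protocols. Which annotation release was used, and whether introns and strand entered the counting, is not given in the sources used here. The matrices total 127094166 UMIs (377P) and 120909095 (RP), with at least 500 per barcode.

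Filters and the selection rule are in the report. The members, gene lists and tests were chosen with earlier results of these data known. UMIs were summed over cells and divided by the group total to give CPM. A fold divides 1 CPM by another, with the exact 95% interval for 2 Poisson counts, and shares have exact binomial (Clopper-Pearson) intervals. A count of 0 was set to 3 counts in log2 ratios. Named genes were the rule genes and Ptn, the 30 genes with the highest lower bound of the fold among those with at least 50 UMIs and in at least 20% of the cells, the 15 with the highest CPM, list members by level or past 2-fold, and 8 per direction against each of the 3 most like classes. Genes of mitochondria, ribosomal proteins, hemoglobins, antigen receptors and the sex check, and predicted genes, did not enter these ranks. The 15 highest included the gland genes Tff2 (3444 CPM, 4657 in lymphocytes) and Muc5b (2831 and 4464).

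Comparison classes were gated on the first 4 markers of each list. The gate as first written, 2 UMIs of 2 markers, was met by free gland RNA and left 6 fibroblasts in RP. Each marker was therefore also required to reach 2 times its share of all kept UMIs, a change made after these sizes were seen. Classes under 50 cells were not ranked. Doublets were called with Scrublet in Scanpy 1.11.5 at an expected 12% and kept, since the rule has no doublet step. Folds and intervals were tested on simulated counts. Coordinates are from GENCODE M21 (GRCm38, mm10), matched by Ensembl identifier.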

Additional observations from a re-analysis of the deposited data

How the results depend on the processing

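The number of selected cells depended on the rule. In RP it was 54 as given, 13 with all 3 rule genes required, 27 with and 27 without a Kcnip4 UMI, and 42 to 76 under the other limits tried. In 377P it was 0, except 2 with 1 UMI per gene and 1 with no limit on Ptprc and Pecam1. With no filter on low levels, 14875 genes were higher and 2304 lower, against 2028 and 1450. There a count of 0 in the selected cells stands at 3 counts, which by construction puts rarely counted genes on the higher side. Fibroblasts ranked first in likeness, and second when all 3 rule genes were required. Of the 30 leading genes, 8 moved by more than 1.5 times with all 3 rule genes required. With each cell thinned to 2000 UMIs 7 did, and with the mean of each cell's own CPM 3. All stayed above 2-fold, which is a description, since the 30 include the 3 rule genes and were picked for high folds in these cells. With all 3 required, Rspo4 fell to a log2 fold of 3.82, Nell1 to 5.03, Col9a2 to 2.95, Kif26b to 3.59 and Scube1 to 5.50, while Grik1 and Adamts3 rose. Kcnip4 rose too, but that is set by the choice, since each of these cells has at least 2 of its UMIs. With the cells that had a Kcnip4 UMI alone, Rspo4 was at 5.72, Nell1 at 5.57 and Col9a2 at 2.52. Leaving out a replicate was not possible with 1 library per title. No paired analysis was possible because each title has 1 library and the labels give no replicate number. Depth limits the rarer genes most: 3 UMIs over the 54 cells are 5.57 CPM.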

Other observations

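In RP, 21 barcodes outside the selection had UMIs of at least 5 of the 10 leading genes that were not rule genes, and 16 of the 21 had a UMI of Ptprc or Pecam1. They had a median of 12925 UMIs and levels of 1282 CPM for Ptn, 594 for Vcan, 442 for Dok6, 241 for Plppr1 and 83.0 for Dlx5. Of the 16 barcodes that met the counts of the rule genes but were left out by these limits, 6 had a Ptprc UMI, 12 a Pecam1 UMI and 2 both.

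The 30 genes with the highest lower bound of the fold span a median of 212 kb of the genome, against 29.3 kb over 9665 measured genes with a known span. Kcnip4 (1135406 bases) and Dok6 (477105 bases) are long, and Msx2 (6191 bases) is short. The part of intronic reads in these levels was not tested. The nuclear RNA Malat1 had 12267 CPM in the selected cells and 11146 in all other kept cells of RP.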
